A study of Mus musculus with 31 samples.

Results

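The genes described here are 9 epithelial and mesenchymal markers of 46072 genes listed in the files. They were chosen by name: the keratins Krt7, Krt8, Krt18, Krt19 and Krt20, the adhesion molecules Epcam, Cdh1 and Cdh2, and the filament gene Vim. Their mRNA was measured in tumors of RM-9, a mouse prostate cancer cell line, and MC-38, a mouse colon cancer cell line, each grown under the skin of the right hind leg. The hosts were wild-type male C57BL/6J mice, and tumors of about 8 mm in diameter received a single dose of 15 Gy (RT). Tumors were collected after 3 h, 12 h or 24 h. Each of the 8 groups had 4 mice, except RM-9 RT 24 h with 3, giving 15 RM-9 and 16 MC-38 libraries. The untreated control mice carry the 3 h time label, so the 3 RT groups of a model share the same 4 controls and have no control of their own age at 12 h and 24 h. Each library was made from a piece of whole tumor, so fewer cancer cells and less RNA per cancer cell cannot be told apart.

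Keratins form the intermediate filaments of epithelial cells. Each filament pairs a type I with a type II chain, and simple epithelia such as gland and gut lining use type II Krt8 and Krt7 with type I Krt18, Krt19 and Krt20. Epcam and Cdh1 (E-cadherin) hold epithelial cells to each other. Cdh2 (N-cadherin) and Vim (vimentin, a filament of the same superfamily) are typical of mesenchymal cells, and cells that undergo epithelial-mesenchymal transition (EMT) lose the first set and gain the second. Transcription factors of the Snail and Zeb families, which repress Cdh1 during EMT, bind the E-box CAGGTG.

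In the coordinates of mouse build GRCm38, Krt8 (ENSMUSG00000049382) is at chr15:101996711-102004342 on the minus strand. Krt18 (ENSMUSG00000023043) is at chr15:102028216-102032026 on the plus strand, 23.9 kb away, with 0 listed genes between them. Krt7 is in the same keratin cluster at chr15:101411043-101430313. Krt19 (chr11:100140810-100148665) and Krt20 (chr11:99428403-99438150) are in the type I cluster on the minus strand. Epcam is at chr17:87635979-87651106, Cdh1 at chr8:106603351-106670246 and Vim at chr2:13573927-13582826.

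The promoters of Krt8 and Krt18 are shown because this adjacent pair differed most between the models, and those of Epcam and Vim because they mark the epithelial and the mesenchymal side. The sequences are from RefSeq on GRCm38.p6, 250 bases before to 50 after the start, read 5′ to 3′ on the gene's strand, with the E-box CAGGTG or its reverse complement CACCTG in capitals.
Krt8 (chr15:102004293-102004592, minus strand): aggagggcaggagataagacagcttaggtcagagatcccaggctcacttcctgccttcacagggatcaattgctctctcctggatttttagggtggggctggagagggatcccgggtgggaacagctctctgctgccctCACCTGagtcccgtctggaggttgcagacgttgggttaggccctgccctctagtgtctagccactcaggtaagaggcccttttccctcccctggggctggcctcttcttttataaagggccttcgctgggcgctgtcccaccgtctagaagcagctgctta
Krt18 (chr15:102027966-102028265, plus strand): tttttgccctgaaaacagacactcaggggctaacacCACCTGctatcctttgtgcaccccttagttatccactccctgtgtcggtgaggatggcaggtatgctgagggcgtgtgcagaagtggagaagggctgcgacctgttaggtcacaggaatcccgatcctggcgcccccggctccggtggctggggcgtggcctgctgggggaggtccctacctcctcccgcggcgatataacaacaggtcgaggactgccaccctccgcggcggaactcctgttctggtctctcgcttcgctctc
Epcam (chr17:87635729-87636028, plus strand): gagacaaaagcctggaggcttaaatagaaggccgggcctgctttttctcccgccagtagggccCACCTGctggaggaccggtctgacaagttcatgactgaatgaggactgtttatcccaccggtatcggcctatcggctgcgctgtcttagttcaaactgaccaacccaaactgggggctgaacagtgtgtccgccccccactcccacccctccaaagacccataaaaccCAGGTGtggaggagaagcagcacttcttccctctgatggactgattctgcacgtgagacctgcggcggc
Vim (chr2:13574061-13574360, plus strand): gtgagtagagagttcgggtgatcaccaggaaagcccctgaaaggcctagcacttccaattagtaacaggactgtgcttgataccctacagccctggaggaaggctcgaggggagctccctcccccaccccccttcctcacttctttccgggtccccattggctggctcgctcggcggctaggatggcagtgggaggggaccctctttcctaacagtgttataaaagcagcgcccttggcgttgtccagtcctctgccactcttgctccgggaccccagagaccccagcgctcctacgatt
The hexamer began 111 bases before the start in Krt8, 214 bases before it in Krt18, and 187 and 19 bases before it in Epcam, with 0 matches in the Vim window. Of the 6 members with a listed promoter, 4 held it, Krt7 being the other (44 bases before the start) and Krt20 lacking it beside Vim. By comparison, 20.2% of 32851 mouse promoters of the same length held the hexamer on either strand. A match is only a description of the letters.

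Depth, computed from the ratio of read coverage to FPKM, was 23.0 to 29.4 M reads in RM-9 and 21.4 to 25.5 M in MC-38 libraries. TPM, the abundance of a gene's transcripts scaled for its length, adds up to the same total in each library, and the mitochondrially encoded genes took 47.3 to 57.2% of it in RM-9 but 22.5 to 40.6% in MC-38 tumors. This left less of the total for other genes in RM-9. The median log2 difference of all genes between RM-9 and MC-38 control mice was -0.63 in TPM, -0.25 without mitochondrial genes, -0.22 in FPKM and -0.03 after median-ratio scaling. Part of the shift of this median remained without mitochondrial genes. Changes are therefore also read against that median, or as ratios of 2 genes within a library, which scaling moves only through the constant of 0.5 added to each, and so most where a gene is near it, as Cdh1 is. The housekeeping genes Actb, Gapdh, Eef1a1, Rpl13a and Hprt were above 0 in every library, and Hprt, the lowest of them, had at least 54.3 TPM.

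The main contrast between the models was in the simple-epithelial keratins. RM-9 tumors had very high Krt8, Krt18 and Krt19 mRNA together with high Vim and clear Cdh2. MC-38 tumors had high Vim and some Cdh2, with Krt8, Krt18 and Krt19 mRNA at or near 0. E-cadherin was below 1 TPM in both.

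Krt8 was 921, 935, 805 and 979.9 TPM in the 4 RM-9 control mice and 0.202, 0.156, 0 and 0.145 TPM in the 4 MC-38 control mice. Krt8 ranked 60 among all genes in RM-9 control tumors by mean level (910.1 ± 74.7 TPM, SD, n = 4). The difference was 10.51 on the log2(TPM + 0.5) scale (SE 0.155, limma adjusted p = 1.4e-27), and it depended on the added constant, being 12.09 with 0.1 and 9.66 with 1. Over all conditions, the lowest of the 15 RM-9 libraries had 463 TPM and the highest of the 16 MC-38 libraries 0.202 TPM, with Krt8 listed at 0 in 9 of them. Read coverage of Krt8 never passed 0.392 reads per base in MC-38, against at least 1252 in RM-9.

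Krt18, the type I partner of Krt8, was 325, 325, 253 and 307 TPM in RM-9 control mice. In MC-38 control mice it was 0.539, 0, 0 and 0.273 TPM. The groups lay far apart (log2 difference 8.81, SE 0.183, limma adjusted p = 2.9e-24). Krt19, the smallest keratin, was 103, 104, 96.0 and 106 TPM in RM-9 control mice and 0 in 3 of 4 MC-38 control mice, the remaining mouse having 0.149 TPM (log2 difference 7.59, SE 0.251, limma adjusted p = 1.1e-19).

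Krt20, a keratin of intestinal lining and bladder surface, was higher in the prostate model than in the colon model. It was 7.07, 6.30, 7.06 and 2.16 TPM in RM-9 control mice, and in MC-38 control mice it was 0.343 TPM in mouse 2 and 0 in the others (log2 difference 3.32, SE 0.32, limma adjusted p = 5.8e-10). Krt7, a type II keratin of ducts, was not expressed above 0.325 TPM in any library of either model and did not pass the filter of a mean of 0.5 TPM. Its RM-9 control values were 0.063, 0, 0 and 0.044 TPM and its MC-38 control values were 0.130, 0.150, 0.072 and 0.296 TPM. The Krt7 groups did not overlap, RM-9 being lower, as for 50.9% of all genes tested (exact permutation test of 4 against 4 mice, two-sided, p = 0.0286, the smallest it can give), but its coverage reached only 0.0840 reads per base in any library.

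Epcam was low in RM-9 and near 0 in MC-38. It was 1.92, 1.02, 1.03 and 1.61 TPM in RM-9 control mice, against 0 TPM in MC-38 control mice 1 and 3 and at most 0.120 TPM in mice 2 and 4 (log2 difference 1.75, SE 0.204, limma adjusted p = 1.9e-08). Cdh1 was 0.546, 0.441, 0.625 and 0.608 TPM in RM-9 and 0.294, 0.847, 0.424 and 0.390 TPM in MC-38 control mice. The Cdh1 groups overlapped, and the log2 difference of 0.12 (SE 0.159) did not pass the test in TPM (limma adjusted p = 0.499), although it was 0.47 and passed after median-ratio scaling (adjusted p = 0.0041), 0.36 and passed in FPKM (adjusted p = 0.030) and 0.43 and passed without mitochondrial genes (adjusted p = 0.036).

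Both mesenchymal genes were higher in RM-9, the model with high Krt8, Krt18 and Krt19. Cdh2 (chr18:16588877-16809246, minus strand) was 10.5, 10.2, 12.2 and 11.04 TPM in RM-9 and 2.84, 5.08, 5.43 and 4.14 TPM in MC-38 control mice, without overlap, as 9.09% of all genes tested were (log2 difference 1.27, SE 0.179, limma adjusted p = 4.8e-07). Vim was 1753, 1851, 1769 and 1797 TPM in RM-9 and 865, 1215, 1168 and 1285 TPM in MC-38 control mice (log2 difference 0.68, SE 0.151, limma adjusted p = 0.00023). By mean level, Vim was ranked 21 of all genes in RM-9 control tumors, and 69 in those of MC-38. Fibroblasts, endothelial cells and leukocytes of a tumor also carry Vim. Leukocyte markers were lower in RM-9 for 6 of 6 genes, endothelial markers for 5 of 6, and fibroblast markers were higher for 3 and lower for 3 of 9. In TPM, 64.7% of all genes tested were lower in RM-9 and 10.7% higher. After median-ratio scaling, 3 leukocyte and 2 endothelial markers were lower, and 5 fibroblast markers higher and 1 lower. Summed leukocyte markers ranged from 69.7 to 94.0 TPM in RM-9 and 163 to 228 TPM in MC-38 control mice, and Ptprc (CD45) was 5.95 ± 0.815 and 30.4 ± 6.00 TPM (SD, n = 4). Their part in the Vim difference was not tested.

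In all, 7 of the 8 members tested were higher in RM-9 than in MC-38 control mice and 0 were lower, where 10.7% of all 15358 genes tested were higher and 64.7% lower. Krt8, Krt18, Krt19, Krt20 and Epcam passed the filter on low values through RM-9 alone, so their part of this count carries no weight of its own. Scaling changed the share of all genes called far more than the calls of the 7 members. The size of the members' differences did move, that of Vim ranging from 0.55 to 1.35 over the settings tried. The share of all calls that were higher in RM-9 was 14.2% in TPM, 32.5% without mitochondrial genes, 34.1% in FPKM and 48.1% after median-ratio scaling, and each of the 7 members was higher under all of these. Tumor model and any difference in how the 2 sets of libraries were made cannot be told apart.

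**Figure D1:**
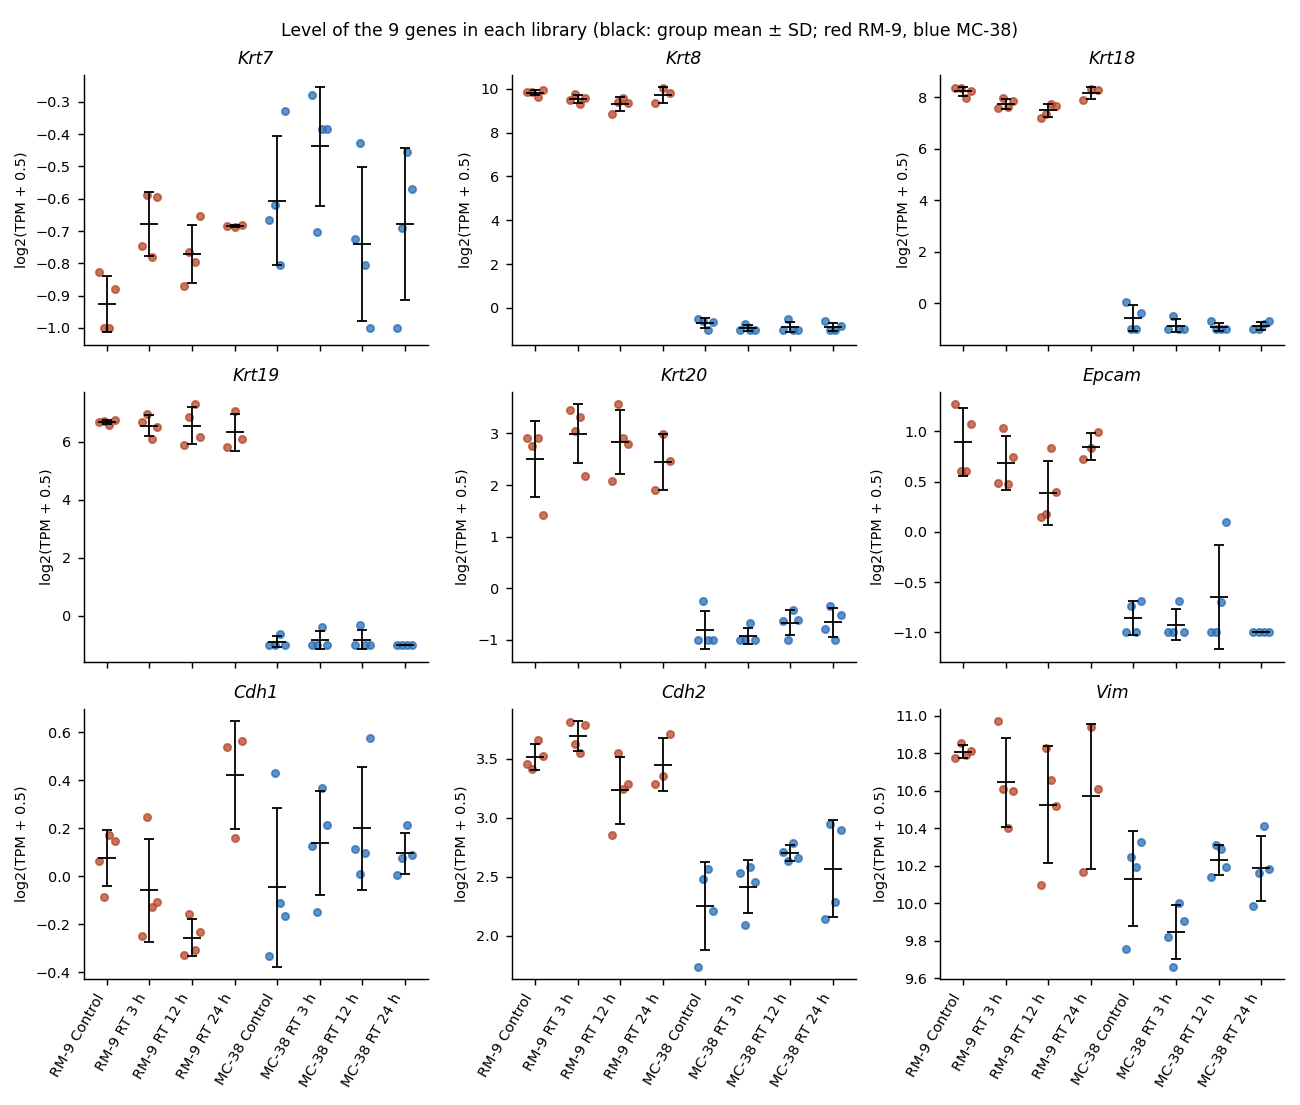
Level of each of the 9 genes as log2(TPM + 0.5) in every library, by group (points: mice; black: group mean and SD; red RM-9, blue MC-38; the vertical range differs between panels, and -1 stands for 0 TPM). Krt8, Krt18, Krt19 and Krt20 separate the models without overlap in all 31 libraries, Cdh1 and Krt7 overlap, and the Krt7 panel spans only 0 to 0.325 TPM.

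**Figure D2:**
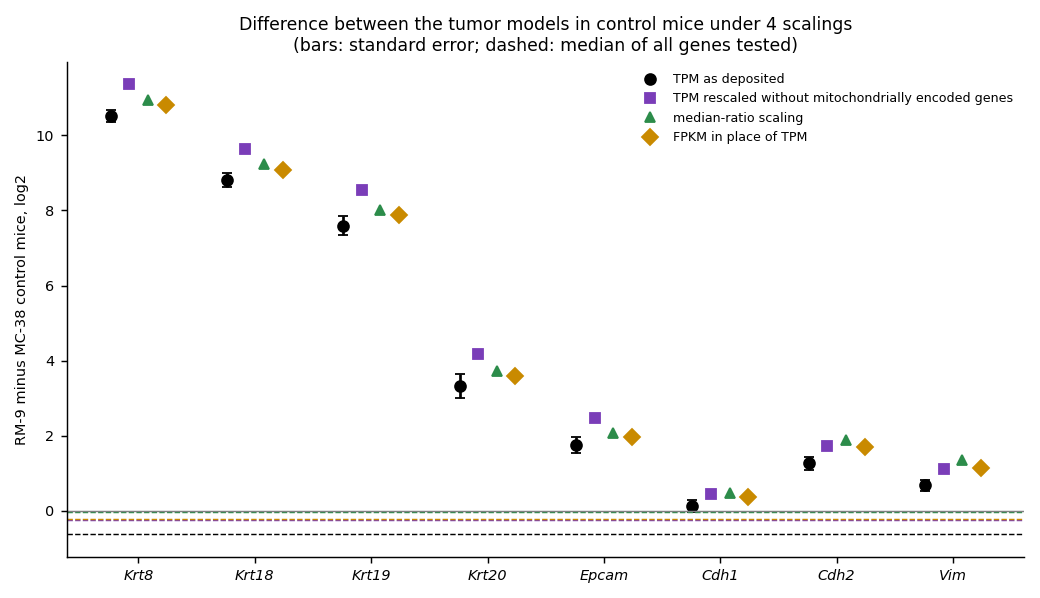
RM-9 minus MC-38 control mice on the log2 scale for the 8 members tested, under 4 scalings (4 mice each; bars on the black points: standard error; dashed lines: median of all genes tested under the scaling of that color). Krt8 is highest at 10.51 in TPM, Cdh1 lowest at 0.12, and each member lies above the median of all genes.

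Beyond the members, keratin genes did not share one direction. Of 24 keratin genes on chromosome 15, 4 averaged at least 1 TPM in RM-9 control mice (Krt8, Krt18, Krt76 and Krt80) and 1 in MC-38 control mice (Krt80). Of 27 on chromosome 11, 6 did so in RM-9 (Krt10, Krt13, Krt15, Krt16, Krt19 and Krt20) and 2 in MC-38 (Krt16 and Krt17). The genes next to the Krt8 and Krt18 pair on the far side of Krt18 did not share the pattern. Eif4b, a translation initiation factor, was 196 ± 10.2 TPM in RM-9 and 178 ± 31.4 TPM in MC-38, Tns2 was 13.9 ± 1.80 and 10.4 ± 3.15 TPM, and Spryd3 was 15.8 ± 0.579 and 38.5 ± 8.81 TPM (SD, n = 4). On the Krt8 side, Krt4, Krt78 and Krt79 were below 0.05 TPM in both. From the list of 14 other keratins, 9 were tested: Krt13 and Krt15 were higher in RM-9, and Krt80, Krt16 and Krt17 lower. Krt13 and Krt15 averaged 0 TPM in MC-38 control mice, and Krt17 averaged 0 TPM in RM-9 control mice. Each of these passed the filter through the other model alone, so its call carries no weight of its own. Among all genes tested, 10.7% were higher and 64.7% lower. The 14 summed to 11.4 ± 1.85 TPM in RM-9 and 13.7 ± 2.15 TPM in MC-38 control mice. Krt80, Krt13 and Krt16 were the most abundant of that list. Krt80 was 1.65 ± 0.266 TPM in RM-9 and 7.85 ± 1.35 TPM in MC-38 control mice (log2 difference -1.95, SE 0.173, limma adjusted p = 1.1e-10). Krt13 was 4.74 ± 1.24 TPM in RM-9 control mice and listed at 0 in each MC-38 control mouse. Krt16, a keratin of stressed skin, was 1.02 ± 0.469 and 3.13 ± 0.929 TPM, a difference that passed in TPM but not after median-ratio scaling.

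**Figure D3:**
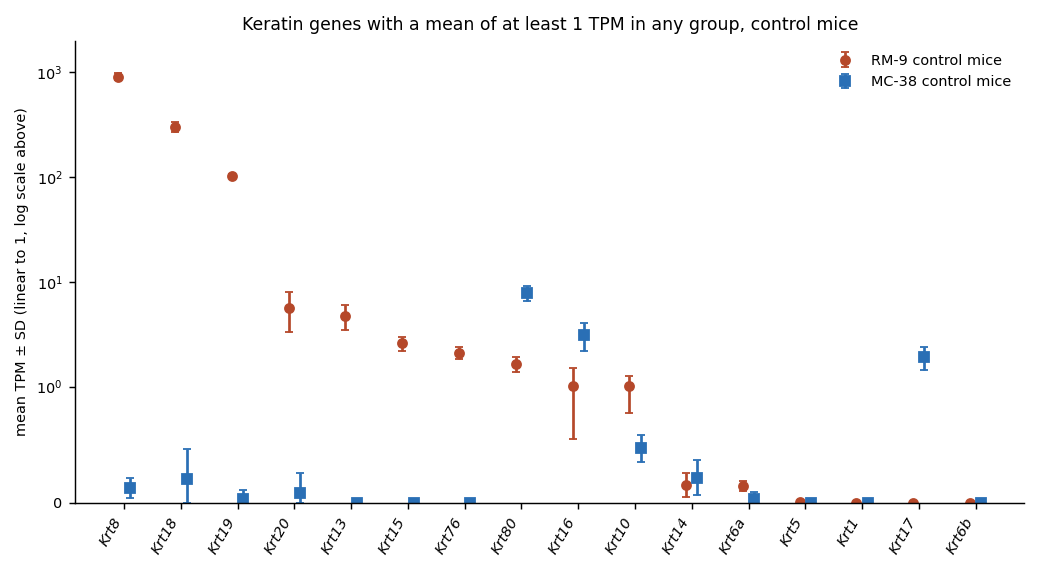
Mean TPM and SD of the 16 keratin genes that reached a mean of 1 TPM in any of the 8 groups, shown for the 4 control mice of each model (vertical axis linear up to 1 TPM and logarithmic above). Krt8, Krt18 and Krt19 stand near 910.1, 302 and 102 TPM in RM-9 and at 0.203 TPM or less in MC-38, while Krt80, Krt16 and Krt17 are higher in MC-38.

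Several genes that build cell junctions were also higher in RM-9. Of 21 junction genes other than Cdh1 and Epcam, 14 were tested, 11 were higher and 1 lower in RM-9 control mice (12 higher and 0 lower under the other 3 scalings), with a list median log2 difference of 1.62 against -0.63 for all genes, of which 10.7% were higher. As only 9 of the 21 passed the filter within MC-38, some of the 14 passed through RM-9 alone, and the count and the median are partly set by the filter. Desmosomes, the junctions that anchor keratin filaments, supplied most of them. Jup (plakoglobin) was 35.6 ± 3.89 TPM in RM-9 and 10.0 ± 1.65 TPM in MC-38 (log2 difference 1.78, SE 0.145, limma adjusted p = 2.0e-11). The desmosomal cadherins Dsc2 and Dsg2 were 3.32 ± 0.566 and 1.22 ± 0.437 TPM in RM-9 against 0.148 ± 0.175 and 0.0074 ± 0.015 TPM in MC-38, and the plaque protein Dsp (desmoplakin), which binds keratins, was 1.73 ± 0.886 against 0.036 ± 0.021 TPM. Tjp1 (the tight junction scaffold ZO-1) was an exception among the abundant genes. It was lower in RM-9 in TPM (12.4 ± 2.27 against 20.5 ± 5.60 TPM, log2 difference -0.67), a call lost under the other 3 scalings. The catenins that link cadherins to actin were abundant in both models. Ctnnb1 was 157 ± 15.7 and 134 ± 19.9 TPM, Ctnna1 82.6 ± 7.59 and 70.9 ± 13.4 TPM, and Ctnnd1 39.0 ± 4.00 and 35.4 ± 6.98 TPM in RM-9 and MC-38. Only Ctnnb1 passed the test in TPM (log2 difference 0.24), and all 3 passed under the other 3 scalings.

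Genes that bind or crosslink keratin filaments included Ppl (periplakin), at 2.46 ± 0.577 TPM in RM-9 and 0.010 ± 0.012 TPM in MC-38, and Plec (plectin), at 32.2 ± 4.37 and 23.1 ± 4.51 TPM. Krtcap2, named for keratinocytes, was lower in RM-9 (50.3 ± 2.82 against 153 ± 16.8 TPM).

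The transcription factors that control this program were not split the same way. All 8 listed EMT factors averaged above 1 TPM in both models. For the calls that follow, 10.7% of all genes tested were higher in RM-9 and 64.7% lower in TPM. Twist2 (50.6 ± 1.38 against 32.9 ± 5.79 TPM) and Tcf4 were higher in RM-9 control mice, and Snai1 (21.0 ± 2.93 against 38.0 ± 14.8 TPM), Zeb2 (9.68 ± 1.27 against 16.6 ± 3.33 TPM), Snai2 and Twist1 were lower. After median-ratio scaling, Snai1 and Zeb2 no longer passed, Zeb1 passed as higher in RM-9, and the list median went from -0.61 to 0.04. Of 12 epithelial regulators, 5 were tested. Klf4 and Klf5 were higher in RM-9 (15.9 ± 5.85 against 9.27 ± 3.08 TPM and 7.70 ± 3.41 against 4.41 ± 0.756 TPM). Ovol2, a repressor of EMT factors, was 4.74 ± 2.59 TPM in MC-38 control mice and listed at 0 in each RM-9 control mouse, and Elf3 and St14 were also lower in RM-9. Of 10 other filament and mesenchymal genes, 4 were higher (S100a4, Fn1, Lmna and Cdh11) and 2 lower (Nes and Ncam1) in RM-9 in TPM, with 7 higher and 1 lower after median-ratio scaling. S100a4 was 1417 ± 348 TPM in RM-9 and 721 ± 196 TPM in MC-38 control mice, Fn1 328 ± 70.04 and 131 ± 45.3 TPM, and Sparc, which did not pass in TPM, 437 ± 104 and 405 ± 75.8 TPM.

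The labelled organs were only partly visible in their markers. Of the prostate markers besides Krt8 and Krt18, Pbsn was listed at 0 in each RM-9 control mouse and Hoxb13 was 0.012 TPM. Of the colon markers in MC-38 control mice, Cdx1 and Cdx2 were listed at 0, and Vil1, Muc2, Lgals4 and Cdh17 averaged between 0.168 and 0.776 TPM. Cdx2, an intestinal transcription factor, was instead 6.06 ± 0.855 TPM in RM-9 control mice.

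After RT, the RM-9 keratins moved by far less than they differed between models. Krt18 fell at 12 h and was the only member to pass the limma test in TPM at any time in either model. Krt8 moved beside it without passing, and Krt19 and Krt20 spread out among mice. At 24 h the means of Krt8, Krt18, Krt19 and Krt20 were 83.1 to 95.9% of control. Some 24 h mice lay outside the control range for each of these genes.

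Krt18 was 190, 253, 196 and 229 TPM at 3 h, against 325, 325, 253 and 307 TPM in control mice. Each 3 h mouse was below each control mouse, as for 2.87% of all genes, though the highest of the RT values and the lowest control value differed by less than 0.1 TPM. At 12 h it was 146, 164, 211 and 202 TPM, all below the controls, and at 24 h 238, 323 and 309 TPM, overlapping them. The mean was 71.7% of control at 3 h, 59.8% at 12 h and 95.9% at 24 h. The log2 change was -0.48 at 3 h (SE 0.139, limma adjusted p = 0.115), -0.75 at 12 h (SE 0.139, limma adjusted p = 0.0246) and -0.06 at 24 h (SE 0.15, limma adjusted p = 0.9995). The median of all genes moved by 0.06, -0.19 and -0.04 at these times. With median-ratio scaling, which removes that shift, the Krt18 change was -0.55 at 3 h and passed (adjusted p = 0.0336) and -0.53 at 12 h and did not pass (adjusted p = 0.0754), and in FPKM it was -0.53 at 3 h (adjusted p = 0.0418) and -0.55 at 12 h (adjusted p = 0.0709). The direction was down in each of these, and the time at which it passed depended on the scaling. The 12 h call also ended without control mouse 1, 2 or 4 or RT mouse 1 or 4, with adjusted p between 0.0559 and 0.102.

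Krt8 was 720.2, 863, 637 and 756 TPM at 3 h, against 805 to 979.9 TPM in control mice. At 12 h it was 463, 674, 767 and 657 TPM, all below the controls, and at 24 h 650.3, 1069 and 887 TPM. Its mean was 81.8%, 70.4% and 95.5% of control. The 12 h change of -0.53 (SE 0.161) did not pass (limma adjusted p = 0.0542), and it was -0.31 after median-ratio scaling (adjusted p = 0.272). In mean TPM the 12 h and control mice did not overlap (exact permutation test of 4 against 4, two-sided, p = 0.0286).

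Across the 15 RM-9 libraries, Krt8 and Krt18 rose and fell together (Pearson r = 0.904, Spearman rho = 0.861, with Benjamini-Hochberg adjusted permutation p over 4 relations of 4.0e-05 and 0.00044). Pearson r was 0.864 without the 2 mice farthest from the median Krt8 level, 0.856 for deviations from the group means and 0.873 after median-ratio scaling. The ratio of Krt8 to Krt18 within a library ranged over 2.83 to 3.19 in control mice, 3.26 to 3.80 at 3 h, 3.16 to 4.10 at 12 h, and 2.73 to 3.31 at 24 h. The 3 h ratios lay above the control ratios (log2 difference 0.19, exact permutation test, two-sided, p = 0.0286, adjusted p = 0.111 over the 35 ratio tests). At 12 h the log2 difference was 0.22 (exact p = 0.0857, adjusted p = 0.2). As the smallest adjusted p among the 35 ratio tests was 0.111, none passed.

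Krt19 was 103, 122, 67.0 and 89.9 TPM at 3 h, 59.1, 114, 158 and 70.3 TPM at 12 h, and 56.3, 131 and 67.2 TPM at 24 h. Control mice had held within 96.0 to 106 TPM, so mice of the RT groups lay both above and below all controls, and the change at 12 h was -0.13 (SE 0.292, limma adjusted p = 0.778). Its sign at 12 h was positive under the other 3 scalings, with values from 0.01 to 0.08. The ratio of Krt19 to Krt18 was 0.317 to 0.380 in control mice and 0.348 to 0.748 at 12 h (log2 difference 0.61, exact permutation p = 0.0571, adjusted p = 0.167). Krt20 was 10.4, 7.71, 9.51 and 4.04 TPM at 3 h, 3.71, 11.4, 7.01 and 6.41 TPM at 12 h, and 3.23, 7.39 and 5.02 TPM at 24 h. These overlapped the control range of 2.16 to 7.07 TPM, and the log2 change was 0.50 at 3 h (SE 0.385, limma adjusted p = 0.443). Krt7 stayed far below the other keratins. It was 0.0966, 0.165, 0.0821 and 0.162 TPM at 3 h, 0.0469 to 0.136 TPM at 12 h and 0.120 to 0.124 TPM at 24 h, above the control mice (at most 0.0631 TPM) without overlap at 3 h and 24 h (exact permutation p = 0.0286 each, two-sided, the smallest possible), as were 9.88% and 2.01% of the genes tested. At this coverage, at most 0.0840 reads per base, the values rest on a few reads.

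Epcam and Cdh1 had their lowest RM-9 values at 12 h. Epcam was 0.605, 0.633, 1.28 and 0.817 TPM there, 3 of the 4 mice being below all controls (log2 change -0.50, SE 0.195, limma adjusted p = 0.101). Cdh1 was 0.342, 0.687, 0.413 and 0.428 TPM at 3 h, 0.297, 0.396, 0.307 and 0.351 TPM at 12 h, and 0.952, 0.618 and 0.977 TPM at 24 h. All 12 h mice were below all controls (log2 change -0.33, SE 0.142, limma adjusted p = 0.13), and the 24 h values reached the highest of any RM-9 group (log2 change 0.35, SE 0.153, limma adjusted p = 0.9995). Without a test, the 12 h and 24 h values of Cdh1 did not overlap. The share of all genes that did the same was not computed. Coverage of Cdh1 was 0.709 to 2.23 reads per base in RM-9, so these values rest on few reads. Across the 15 libraries, Epcam and Cdh1 correlated weakly (Pearson r = 0.573, Spearman rho = 0.589, adjusted permutation p = 0.0373 and 0.0459). Pearson r was 0.570 without the 2 mice farthest from the median Epcam level, 0.496 after median-ratio scaling (adjusted permutation p = 0.121) and 0.334 within groups.

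Cdh2 was 13.5, 11.8, 11.2 and 13.3 TPM at 3 h, 6.72, 11.2, 8.96 and 9.25 TPM at 12 h and 9.27, 9.76 and 12.6 TPM at 24 h, and no change passed (log2 changes 0.18, -0.28 and -0.06). The ratio of Cdh2 to Cdh1, a simple readout of the cadherin balance, was 18.2 to 23.1 in control mice and 9.74 to 15.8 at 24 h. The 24 h ratios lay below all controls (log2 difference -0.41, exact permutation test of 3 against 4, two-sided, p = 0.0286, adjusted p = 0.111). Vim was 2006, 1560, 1352 and 1548 TPM at 3 h, 1094, 1816, 1614 and 1468 TPM at 12 h and 1148, 1961 and 1558 TPM at 24 h, overlapping the controls at each time (log2 changes -0.16, -0.28 and -0.24). Vim to Krt8 went from a log2 ratio of 0.98 ± 0.113 in control mice to 1.23 ± 0.152 at 12 h (exact permutation p = 0.0571, adjusted p = 0.167).

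Of the 8 members tested in RM-9 with limma, 0 passed at 3 h, 1 (lower) at 12 h and 0 at 24 h, with 1, 4 and 1 at an unadjusted p under 0.05 and 1, 2 and 1 by Dunnett's comparisons on TPM (Krt18, then Krt8 and Krt18, then Cdh1). Among all 14013 genes, 0.228%, 8.37% and 0% passed with limma, and 8.3% were lower at 12 h, so 1 of 8 members lower is close to the background. Shares of all genes by unadjusted p or by Dunnett's comparisons were not computed. Those counts therefore have no background to be read against. The members' median log2 change was -0.15, -0.31 and -0.06, beside 0.06, -0.19 and -0.04 for all genes. At 12 h, 1163 of 1173 calls were lower in TPM, against 6 of 19 after median-ratio scaling, 67 of 76 without mitochondrial genes and 3 of 6 in FPKM. Krt8, Krt18 and Cdh1 were the tested members whose 12 h mice were all below the controls, and 19.4% of all genes did the same. Skeletal muscle of the leg was present in unequal amounts. Its 7 markers summed to 238 to 2191 TPM in RM-9 control mice, 3.88 to 871 TPM at 3 h, 3.48 to 922 TPM at 12 h and 224 to 2248 TPM at 24 h, and leukocyte markers to 69.7 to 94.0 TPM in control mice and 53.9 to 79.6 TPM at 12 h. Their part in the keratin values was not tested.

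In the junction list, Jup and Pkp3, both desmosomal plaque proteins, were the only genes called in RM-9 at 12 h (log2 changes -0.49, SE 0.14, adjusted p = 0.0451, and -0.56, SE 0.14, adjusted p = 0.0316, limma, of 14 tested), and neither passed under the other 3 scalings. In the lists of catenins, epithelial regulators, EMT factors, other keratins, keratin partners and other filament and mesenchymal genes, 0 of 32 tested passed with limma at any time in RM-9, with 7, 3 and 0 at an unadjusted p under 0.05 at 3 h, at 12 h and at 24 h. Here too, no share of all genes by unadjusted p was computed.

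**Figure D4:**
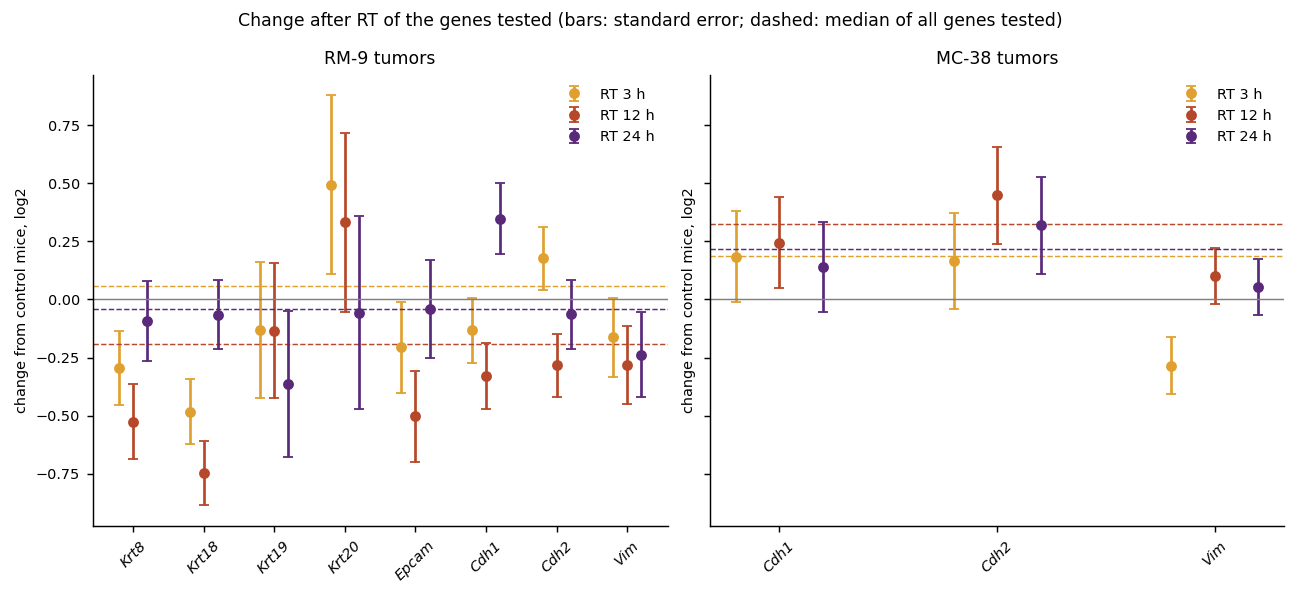
Change of the members tested from control mice on the log2(TPM + 0.5) scale at each time after RT (bars: standard error; dashed lines: median of all genes at the time of that color; 4 mice per group, 3 in RM-9 RT 24 h). In RM-9, Krt18 reaches -0.75 and Krt8 -0.53 at 12 h, below the median of all genes at -0.19, and in MC-38 the dashed medians are above 0.

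In MC-38, Krt8, Krt18, Krt19 and Krt20 mRNA was at or near 0 in the irradiated mice too. Krt8 stayed at or below 0.193 TPM, Krt18 at or below 0.212 TPM and Krt19 at or below 0.293 TPM in the 12 irradiated mice. Krt20 was 0.283 TPM or less in them. Krt19 and Epcam were listed at 0 in all 4 mice at 24 h. No limit from counting can be put on these, since no read counts were given, but at 21.4 M reads or more per library, coverage was under 0.33 reads per base for Krt8, Krt18 and Krt19.

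Epcam was 0.572 TPM in RT 12 h mouse 4 and at or below 0.119 TPM in the other 11 irradiated mice. The same mouse had the highest Cdh1 of the model, 0.991 TPM. Its 8 skin keratinocyte markers (Krt5, Krt14, Krt15, Krt1, Krt10, Trp63, Lor and Dsg3) summed to 68.7 TPM, with 6 of them at 1 TPM or more, against 0.690, 0.871 and 0.973 TPM in the other 3 mice of the group. The part of those markers in its Epcam and Cdh1 was not tested. Without it, the Cdh1 change at 12 h went from 0.24 to 0.12.

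Cdh1, Cdh2 and Vim passed the filter in MC-38, and 0 of the 3 passed the limma test at any time, where 0.0637%, 31.1% and 13.8% of 15698 genes passed. At an unadjusted p under 0.05 there were 1, 1 and 0 of them, and by Dunnett's comparisons 0. Shares of all genes by these rules were not computed. Cdh1 was 0.592, 0.402, 0.788 and 0.657 TPM at 3 h, 0.580, 0.507, 0.570 and 0.991 TPM at 12 h and 0.503, 0.553, 0.658 and 0.562 TPM at 24 h, inside or close to the control range of 0.294 to 0.847 TPM. Cdh2 was 5.30, 3.75, 5.51 and 4.98 TPM at 3 h, 6.04, 5.72, 6.41 and 5.82 TPM at 12 h and 3.91, 7.23, 4.39 and 6.93 TPM at 24 h. All 12 h mice were above the control range of 2.84 to 5.43 TPM, as were 34.5% of all genes. The Cdh2 change of 0.45 (SE 0.208, limma adjusted p = 0.0994) was close to the median of all genes, 0.33, and was 0.13 after median-ratio scaling (adjusted p = 0.538). Without control mouse 1, the lowest, it was 0.28 (adjusted p = 0.323). In that mouse the skeletal muscle markers summed to 10195 TPM, against 20.5 to 1670 TPM in the other 3 control mice and 7.95 to 442 TPM at 12 h, and mitochondrial genes took 40.6% of TPM, against 25.7 to 31.04% in the other controls. Leukocyte markers summed to 163 to 228 TPM in control mice and 106 to 179 TPM at 12 h, where 4 of 6 were lower. The part of these in the MC-38 changes was not tested.

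Vim was 901, 809, 1023 and 959.6 TPM at 3 h in MC-38, 1126, 1268, 1249 and 1169 TPM at 12 h and 1013, 1143, 1362 and 1162 TPM at 24 h. The 3 h values were low beside the control range of 865 to 1285 TPM, and 1 mouse (809 TPM) was below it (log2 change -0.28, SE 0.121, limma adjusted p = 0.221). Set against a median of all genes of 0.19, this change passed under the other 3 scalings (adjusted p = 0.019 after median-ratio scaling, 0.034 in FPKM and 0.041 without mitochondrial genes). At 12 h and 24 h the Vim change was 0.10 and 0.05 in TPM and below 0 under the other 3 scalings, passing in none, and in TPM it was -0.02 and -0.07 without control mouse 1. The Cdh2 and Vim correlation over the 16 libraries was 0.480 in TPM and -0.10 after median-ratio scaling (Spearman rho 0.315 and -0.1, adjusted permutation p 0.0592 and 0.233 in TPM). Without the 2 mice farthest from the median Cdh2 level, Pearson r itself fell to 0.0357 in TPM. In RM-9 the correlation was 0.567 and 0.118 (Spearman rho 0.332 and 0.1, adjusted permutation p 0.0373 and 0.233 in TPM), with Pearson r at 0.298 in TPM without the 2 farthest mice. Neither correlation held across scalings.

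In MC-38 at 12 h, some list genes passed in TPM, where 28.5% of all genes were higher (4469 of 4875 calls, against 995 higher and 1544 lower after median-ratio scaling). All 3 catenins were higher at 12 h (Ctnnd1 0.64, Ctnna1 0.55 and Ctnnb1 0.37 on the log2 scale, limma adjusted p = 0.0120, 0.0132 and 0.0321), and Ctnna1 and Ctnnd1 also passed under the other 3 scalings. Among the junction genes, Tjp1 was higher (0.95, SE 0.216, adjusted p = 0.0123) and F11r, a tight junction receptor, lower (-0.57, SE 0.161, adjusted p = 0.0216), and both calls held under each scaling. Twist1 was the only EMT factor called at 12 h (0.51, adjusted p = 0.0239), in TPM and without mitochondrial genes but not under the other 2 scalings.

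The change at 12 h differed between the models for Cdh2 (MC-38 change minus RM-9 change 0.73, limma adjusted p = 0.0230), Cdh1 (0.58, adjusted p = 0.0392) and Epcam (0.71, adjusted p = 0.0464), but not for Vim (0.38, adjusted p = 0.134). This was 3 of 8 members, all 3 higher, where 45.4% of all 15358 genes passed and 44.9% were higher, and the median difference of all genes was 0.50. Epcam passed the filter through RM-9 alone and was listed at 0 in 11 of the 16 MC-38 libraries. It could hardly fall in MC-38, so its part of this count carries little weight. None of the 3 passed after median-ratio scaling, without mitochondrial genes or in FPKM. The differences for Cdh1 and Epcam did not pass without MC-38 RT 12 h mouse 4 (0.45 and 0.46, adjusted p = 0.0973 and 0.131). That for Cdh2 did not pass without MC-38 control mouse 1 (0.56, adjusted p = 0.0728) or RM-9 RT 12 h mouse 1 (0.61, adjusted p = 0.0636). Without MC-38 control mouse 1, Cdh1 (0.48, adjusted p = 0.101) and Epcam (0.66, adjusted p = 0.0946) did not pass either. The Cdh1 call also ended without RM-9 control mouse 1, 3 or 4, RM-9 RT 12 h mouse 1, 3 or 4 or MC-38 control mouse 4, and the Epcam call without RM-9 control mouse 1 or 4, RM-9 RT 12 h mouse 1, 2 or 4, MC-38 control mouse 3 or MC-38 RT 12 h mouse 3 (adjusted p from 0.0504 to 0.1004). At 3 h and 24 h, 0 members differed by limma (0 at an unadjusted p under 0.05), where 0% and 1.81% of all genes did.

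**Figure D5:**
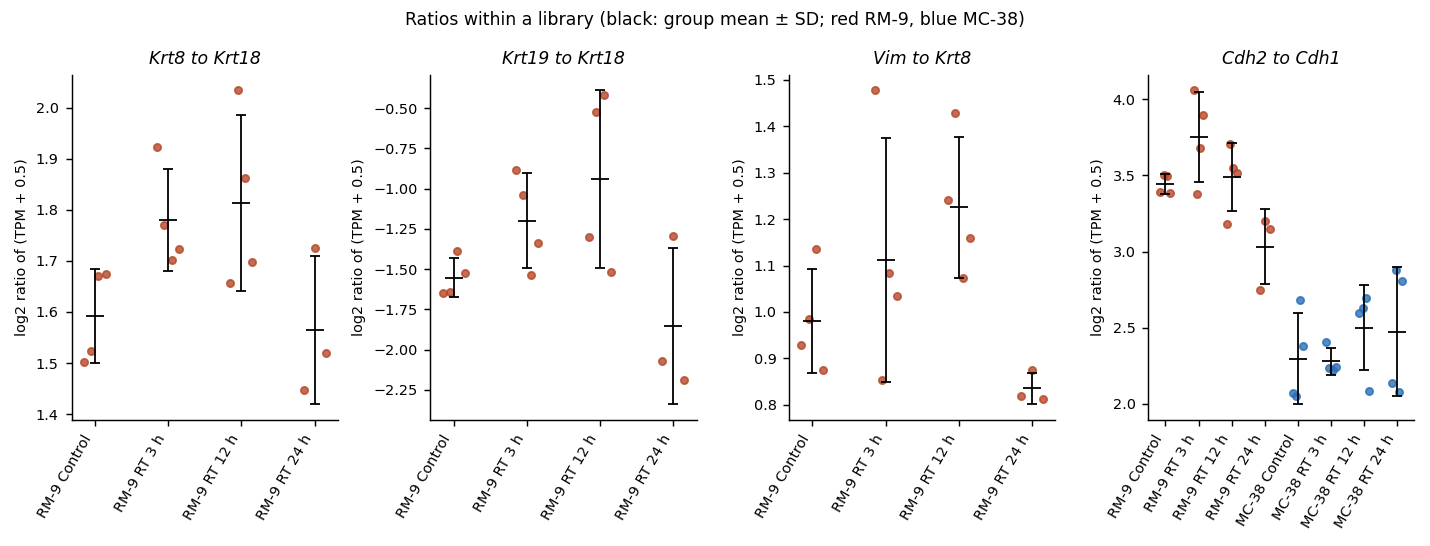
Log2 ratios of 2 members within each library (points: mice, black: group mean and SD, red RM-9, blue MC-38). Ratios with a keratin are shown for RM-9 alone, as Krt8, Krt18 and Krt19 are near 0 TPM in MC-38. Krt8 to Krt18 is above all controls at 3 h, Cdh2 to Cdh1 is below all RM-9 controls at 24 h and higher in RM-9 than in MC-38 control mice (3.44 ± 0.0644 against 2.30 ± 0.298).

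Set in order of mean level over the 8 groups, Vim ran from RM-9 control mice (1792 TPM) to MC-38 RT 3 h (923 TPM), the 4 RM-9 groups coming first, with overlap between neighbours. Cdh2 had the same split, from RM-9 RT 3 h (12.5 ± 1.14 TPM) to MC-38 control mice (4.37 ± 1.16 TPM). Cdh1 had no split, from RM-9 RT 24 h (0.849 ± 0.201 TPM) to RM-9 RT 12 h (0.338 ± 0.0452 TPM).

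For each member, the 3 genes with the highest Pearson r of log2(TPM + 0.5) were found over the libraries of the model where it was higher, among genes of at least 1 TPM. As all libraries share the TPM scaling, genes can correlate through it, so the value is a description. For Krt8 these were Ebna1bp2 (0.956), Vdac1 (0.953) and Anxa2 (0.947), and for Krt18 Capzb (0.975), Pfn1 (0.973) and Nudc (0.962), over 15 libraries. After median-ratio scaling they were Ruvbl1 (0.917), Ebna1bp2 (0.902) and Cct8 (0.900) for Krt8 and Ebna1bp2 (0.960), Npm1 (0.947) and Tpm3 (0.944) for Krt18. For Krt19 they were Calm2 (0.892), Selenbp1 (0.854) and Fkbp5 (0.852), of which Selenbp1 and Fkbp5 stayed after median-ratio scaling with Krt13 beside them. For Krt20 they were Aldh1a3 (0.878), Cdh13 (0.870) and Slc2a1 (0.864), and after median-ratio scaling none of these but Pfkp (0.930), Arfgap3 (0.892) and Ppp1r14c (0.887). Epcam went with 2900026A02Rik (0.931), Ahsa1 (0.906) and Alad (0.898), Cdh2 with Inpp5f (0.972), Cul1 (0.971) and Gm6039 (0.969), and Vim with Eml1 (0.937), Gm14680 (0.936) and Sms (0.928). After median-ratio scaling, 2900026A02Rik stayed for Epcam, Gm6039 for Cdh2 and all 3 for Vim. Over the 16 MC-38 libraries, Cdh1 went with the granzyme genes Gzmg (0.856) and Gzmf (0.851) and with Blvrb (0.832), of which Gzmg and Gzmf stayed after median-ratio scaling. Krt7, below 0.33 TPM everywhere, went with RP23-218B2.3 (0.817), Gm12094 (0.790) and Gm5829 (0.789), values that rest on few reads and of which none stayed after median-ratio scaling.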

How the data were processed

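The authors sequenced poly(A) RNA in single-end 75-base reads (TruSeq Stranded mRNA kit) and deposited 1 table per library with TPM, FPKM and coverage. TPM was deposited as scaled by the authors to a fixed total per library, and FPKM was deposited beside it. Coverage, the mean read depth per base, was deposited without scaling. The aligner and the abundance program are not given in the sources used here. The submitters' notes name bcl2fastq 2.17 and GRCm39, but the coordinates are those of GRCm38: of 46072 listed genes, 98.0% were in GENCODE M21, and 91.1% of these shared its start or end.

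Samples were grouped by their labels. TPM was tested as log2(TPM + 0.5) with limma 3.58.1 (lmFit, eBayes with trend) in R 4.3.3, on genes whose TPM averaged 0.5 or more in the libraries fitted (14013 in RM-9, 15698 in MC-38, 15358 in all 31), with Benjamini-Hochberg adjustment over them and a threshold of 0.05. A fold change on this scale understates the change of low genes. Each model was fitted with its 4 groups, and the models were compared in 1 fit of 8 groups. The smallest exact p of 4 against 4 (70 assignments) or 3 against 4 mice (35) is 0.0286. Correlations used 100000 permutations. The test was tried on simulated data first. The alternatives tried were median-ratio scaling, pseudocounts of 0.1 and 1, TPM without mitochondrially encoded genes, no filter, a replicate block, only the compared groups in the fit, Dunnett's comparisons on TPM, leaving out each mouse and, added after seeing the data, FPKM in place of TPM. Other steps used scipy 1.17.1, pandas 2.3.3 and numpy 2.4.6 in Python 3.11.15, with figures by matplotlib 3.10.9. All 9 members are named. From each list, the 3 genes with the highest mean TPM and those needed for a count of 5 or fewer are named, except a few that are not reported here, and the desmosomal genes beyond these were named after their values were seen. The members and lists were chosen with earlier results of these data known. No read counts were used, so no counting error is given for single genes.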

Additional observations from a re-analysis of the deposited data

Results flagged for a closer look

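Of 61 groups of 4 mice checked for a value far from the others, 12 had one. A lone value above 0 beside mice all listed at 0 is flagged whatever its size. A chance rate of about 1 in 20 therefore does not apply to such groups, and the 12 cannot be set against it. Most of the 12 values are single ones above 0 among MC-38 mice listed at 0 or close to it, which rest on few reads. They were Krt8 in mouse 2 at RT 3 h (0.0984 TPM) and RT 12 h (0.193 TPM), Krt18 in RT 3 h mouse 2 (0.212 TPM) and RT 12 h mouse 1 (0.121 TPM), Krt19 in control mouse 3 (0.149 TPM), RT 3 h mouse 3 (0.268 TPM) and RT 12 h mouse 2 (0.293 TPM), Krt20 in control mouse 2 (0.343 TPM) and RT 3 h mouse 3 (0.122 TPM), and Epcam in RT 3 h mouse 3 (0.119 TPM). Cdh1 in MC-38 RT 12 h mouse 4 was 0.991 TPM, above the others of its group at 0.507 to 0.580 TPM, in the library with the skin keratinocyte markers. Krt20 in RM-9 control mouse 4 was 2.16 TPM, below the others of its group at 6.30 to 7.07 TPM.

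The change at 12 h differed between the models by limma for Cdh1 (MC-38 minus RM-9, 0.58 on the log2 scale), Cdh2 (0.73) and Epcam (0.71), beside a median of 0.50 over all genes. Of all genes tested, 45.4% passed and 44.9% were higher. None of these members passed after median-ratio scaling, without mitochondrial genes or in FPKM.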

How the results depend on the processing

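All 7 differences between the models that passed in TPM passed under each alternative run, and Cdh1 passed under 3 scalings. For Krt8, Krt18, Krt19, Krt20 and Epcam this carries no weight of its own. They passed the filter on low values through RM-9 alone. After RT the calls were less stable, and unless the alternative shows it, the cause was not tested. Of the 8 members tested with limma in RM-9, 0 passed at 3 h, but 1 did after median-ratio scaling, in FPKM and with Dunnett's comparisons. At 12 h, 1 passed, but 0 did after median-ratio scaling, in FPKM or with only the compared groups in the fit, and 2 did with Dunnett's comparisons. At 24 h, 0 passed, and 1 did with Dunnett's comparisons. Krt7, below the filter, also passed Dunnett's comparisons at 3 h and 24 h. No share of all genes was computed for Dunnett's comparisons. In MC-38 at 3 h, 0 passed, but 1 did after median-ratio scaling, in FPKM and without mitochondrial genes. The difference in change between models at 12 h passed for 3 members, for 0 after median-ratio scaling, in FPKM or without mitochondrial genes, and for 1 with no filter on low values.

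Mice with the same number did not pair: the correlation of their deviations ran from -0.389 to 0.317 in RM-9 and from -0.483 to 0.554 in MC-38. With a replicate block, 2 members passed in RM-9 at 12 h and 1 differed between models at 12 h, and no other count changed.

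Directions turned for small changes. After median-ratio scaling, without mitochondrial genes and in FPKM, Krt19 in RM-9 at 12 h was 0.085, 0.011 and 0.060, and Vim in MC-38 was -0.25, -0.038 and -0.18 at 12 h and -0.21, -0.052 and -0.17 at 24 h. After median-ratio scaling, Cdh2 in MC-38 at 3 h was -0.027. The Vim difference in change at 12 h was -0.15 after median-ratio scaling and -0.092 in FPKM. With a pseudocount of 1, the Cdh2 to Cdh1 log2 ratio changed by -0.0537 in RM-9 at 12 h and 0.028 in MC-38 at 3 h.

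Leaving out 1 mouse at a time, the number called was 0 to 2 in RM-9 at 12 h and 0 to 3 for the difference in change at 12 h. The log2 change ranged in RM-9 from -0.26 to 0.028 for Krt19 at 3 h, -0.39 to 0.082 for Krt19 and -0.032 to 0.59 for Krt20 at 12 h, and at 24 h from -0.26 to 0.10 for Krt8, -0.15 to 0.071 for Krt18, -0.42 to 0.22 for Krt20, -0.14 to 0.085 for Epcam and -0.19 to 0.018 for Cdh2. In MC-38 it ranged from -0.0045 to 0.28 for Cdh2 at 3 h and for Vim from -0.024 to 0.17 at 12 h and -0.071 to 0.12 at 24 h, and the Cdh2 difference in change at 3 h from -0.18 to 0.098. Log2 ratio changes in RM-9 ranged for Krt8 to Krt18 from 0.14 to 0.21 at 3 h, 0.15 to 0.27 at 12 h and -0.11 to 0.031 at 24 h, for Krt19 to Krt18 from 0.25 to 0.46 at 3 h and 0.44 to 0.81 at 12 h, and for Cdh2 to Cdh1 from 0.21 to 0.44 at 3 h, -0.026 to 0.15 at 12 h and -0.49 to -0.27 at 24 h, and in MC-38 at 3 h from -0.10 to 0.11. Members near 0 TPM rest on few reads, which limits Cdh1, Krt7 and the MC-38 keratins most.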
